A study of Rattus norvegicus with 31 samples.

Results

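The glutathione, thioredoxin and antioxidant genes were taken as every probe set with 1 gene symbol whose symbol named a glutathione peroxidase (Gpx), a glutathione S-transferase (Gst of the classes alpha, kappa, mu, omega, pi, theta and zeta, and the microsomal Mgst), a peroxiredoxin (Prdx), a superoxide dismutase (Sod), catalase (Cat), a thioredoxin, thioredoxin reductase or thioredoxin-domain protein (symbols that begin with Txn), a glutaredoxin (Glrx), an enzyme that makes or recycles glutathione (Gclc, Gclm, Gss and Gsr), Nqo1, a heme oxygenase (Hmox) or a metallothionein (Mt). The choice used gene symbols and no measured value, but it was made with earlier results of these data known. It gave 59 probe sets of 56 genes, among 11880 probe sets of 9769 genes with 1 symbol, and tests were run over all 12913 probe sets. Gclc, Glrx and Txnl1 had 2 probe sets each. Probe sets annotated to several genes at once, among them those of Prdx1, of Gsta2 with Gsta5 and of Mt1, were left out, and Gpx1, Nqo1 and Hmox1 were not analysed here.

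Cells that respire make superoxide and hydrogen peroxide, and neurons with long axons and a high energy demand, such as motor neurons, depend on enzymes that remove them. Superoxide dismutases turn superoxide into hydrogen peroxide, which catalase, the glutathione peroxidases and the peroxiredoxins reduce to water. The peroxidases draw their electrons from glutathione or from thioredoxin, both kept reduced by reductases that use NADPH, while glutaredoxins act on thiols bound to glutathione and glutathione S-transferases join glutathione to reactive lipids and foreign compounds.

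The cells were motor neurons of the tail of adult male Wistar rats, marked by Fluoro-Gold injected into the muscle and the peritoneum in all groups, cut by laser from the sacral cord and measured on Affymetrix rat arrays after amplification of the RNA in 2 rounds. The groups were 4 uninjured animals (Control) and 6, 5, 8 and 8 animals killed 2, 7, 21 and 60 days after the cord was transected at the second sacral segment (Spi-2, Spi-7, Spi-21 and Spi-60), with 1 array for each of the 31 animals. Injured animals had also undergone laminectomy and pain relief with buprenorphine, and no sham-operated group was used here, so that transection and the surgery around it cannot be told apart. The animals of Spi-21 and Spi-60 came from an earlier study and the others from the present one, so that the study and a late change from control cannot be told apart. All values are log2 RMA expression summaries, on which a difference of 1 is a doubling. They do not order the abundance of different genes. In RNA from pooled cells, fewer cells that express a gene and less RNA per cell cannot be told apart.

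The cell type of the labels was checked by 7 motor neuron markers, whose mean lay between 10.72 and 11.37 in every animal, against array medians between 5.95 and 6.1. The neurofilament genes Nefh, Nefl and Nefm, which mark neurons in general, averaged 14.14, 13.77 and 13.24, and Prph (peripherin) averaged 12.75. Of the cholinergic genes Slc5a7 averaged 10.58 and Slc18a3 7.32, while the motor neuron factor Isl1 averaged 5.70, under the array medians. Prph was higher on all 4 days, by 0.59 to 0.79, and Slc5a7 was lower at days 2, 21 and 60, with changes of -1.18, -1.11 and -1.06. Glial RNA was present as well: the astrocyte gene Gja1 averaged 11.13 and the myelin gene Cldn11 averaged 11.33. Of 6 astrocyte markers, each by its brightest probe set, Gfap was higher at days 2, 21 and 60, by 2.45, 1.34 and 1.83, and Slc1a3 was lower at day 21 (-0.94, with 0.15 for its dimmer probe set). At day 7 the change of Gfap was 1.33 (adjusted p = 0.0967), and 0 of the 6 were called. The mean of 9 microglia and macrophage markers lay between 5.52 and 5.78 in Control, 6.31 and 7.15 in Spi-2, 5.89 and 6.88 in Spi-7, 5.50 and 7.12 in Spi-21, and 5.85 and 7.20 in Spi-60, and 4, 1, 2 and 3 of the 9 passed as higher than control at days 2, 7, 21 and 60. Oligodendrocyte markers lay the other way, with 1, 1, 4 and 1 of 8 lower. The Spi-2 animal numbered 4 stood apart in 5 meningeal and fibroblast markers, whose mean was 10.30 in it. The difference between the 3′ and 5′ Gapdh control probe sets, a sign of how far transcripts were shortened, averaged 2.01 ± 0.33 in Control, 2.82 ± 0.36 in Spi-2, 3.01 ± 0.37 in Spi-7, 2.29 ± 0.94 in Spi-21 and 3.49 ± 0.35 in Spi-60 (SD, n = 4, 6, 5, 8 and 8).

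As a whole the antioxidant genes did not move in 1 direction after the injury, and single members did. The fit compared each injured group with control by limma's moderated contrast and all 5 groups by its F-test, with p-values adjusted by the Benjamini-Hochberg method over all 12913 probe sets, and a call was an adjusted p under 0.05 for a contrast and under 0.02 for the F-test. The F-test called 10 of the 59 members (16.9%), against 16.2% of all probe sets. At day 2, 4 members were lower and 0 higher (all probe sets, 4.98% lower and 3.9% higher). At an unadjusted p under 0.05, 10 members were lower and 6 higher on that day. At the same threshold 7 were lower and 3 higher at day 7, 19 and 9 at day 21, and 14 and 13 at day 60. The share of all probe sets at that threshold was not counted, here or below. At day 7, 3 were called lower and 1 higher (all probe sets, 1.67% and 0.914%). At day 21, 6 were lower and 2 higher (all probe sets, 10.7% and 5.94%), and at day 60, 5 were lower and 7 higher (all probe sets, 9.89% and 7.2%). The members' shares of 6.78% lower at day 2, 5.08% lower at day 7 and 11.9% higher at day 60 exceeded the shares of all probe sets by the equivalent of 1.06, 2.01 and 2.75 probe sets, and the other shares lay closer to them or under them. The median change of the 59 members was -0.01, -0.02, -0.02 and -0.04 at days 2, 7, 21 and 60, and that of all probe sets lay between 0.00 and 0.01.

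Within each study fewer differences could be seen. On the 15 arrays of Control, Spi-2 and Spi-7, the F-test called 3 members (Gpx4, Txndc12 and Sod1), against 3.01% of all probe sets. Between Spi-7 and Spi-2, 0 members were called, against 0% of all probe sets in either direction, with 3 members at an unadjusted p under 0.05 and a lowest adjusted p of 0.993. Between Spi-60 and Spi-21, on 16 arrays, 0 members were called, against 0.00774% of all probe sets lower and 0% higher, with 6 members at an unadjusted p under 0.05. The member with the smallest p there was Gstp1, which was 0.28 ± 0.10 (SE) higher in Spi-60 than in Spi-21 (adjusted p = 0.324).

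**Figure D1:**
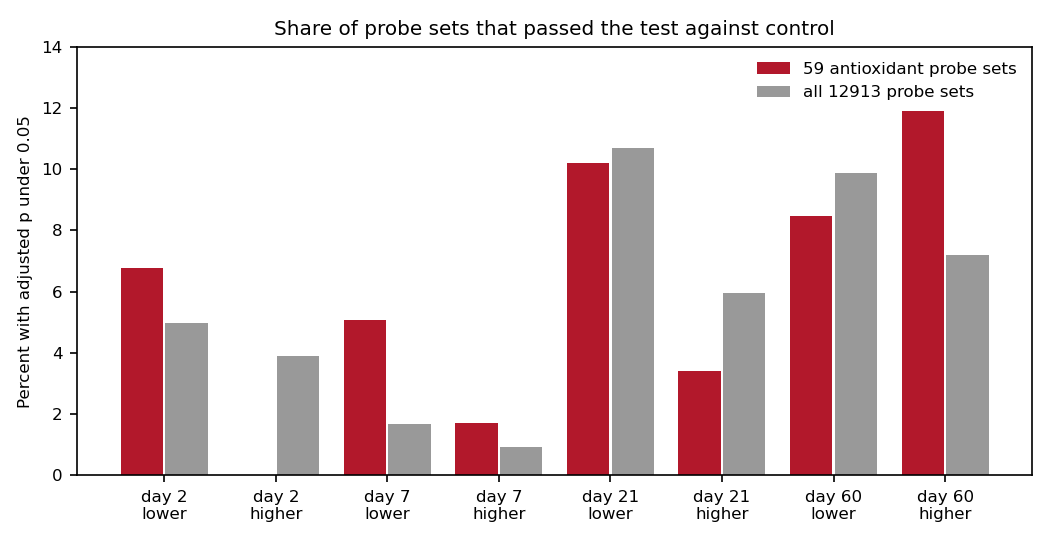
Percent of probe sets that passed limma's contrast with control (vertical axis) as lower or higher at each day (horizontal axis), for the 59 antioxidant probe sets (red) and all 12913 probe sets (grey). The red bars reach 11.9% for higher at day 60, where the grey bar is at 7.2%, and are absent for higher at day 2.

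In all, 18 members of 18 genes (30.5% of the 59) passed the F-test or a contrast, against 29.2% of all probe sets: 8 passed both, 2 passed the F-test alone and 8 a contrast alone. Of these, 2 were called on all 4 days (Glrx3 and Txndc12), 2 on 3 days (Gpx4 and Mgst2), 2 on 2 days (Glrx2 and Sod1) and 10 on 1 day. The other 41 had changes between -0.88 and 0.61. Of the 7 members within the dimmest 25% of all probe sets by mean value, 0 passed a test. How many of all the probe sets in that part passed was not counted, so this 0 cannot be judged. Leaving out 1 animal moved the number of calls by over 1.5 times at day 7, to 1 or 2 without control animal 1, 2 or 3 or Spi-7 animal 2 or 3, at day 21, to between 3 and 5 without control animal 1, 2 or 3 or Spi-21 animal 1 or 3, and at day 60, to 7 without control animal 2. With the Gapdh difference as a covariate, 3, 2, 5 and 2 of the 4, 4, 8 and 12 calls at days 2, 7, 21 and 60 were kept. The covariate also lowered the shares of all probe sets called on these days. They were 5.95%, 1.47%, 15.2% and 2.07% with it and 8.87%, 2.59%, 16.6% and 17.1% without it.

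**Figure D2:**
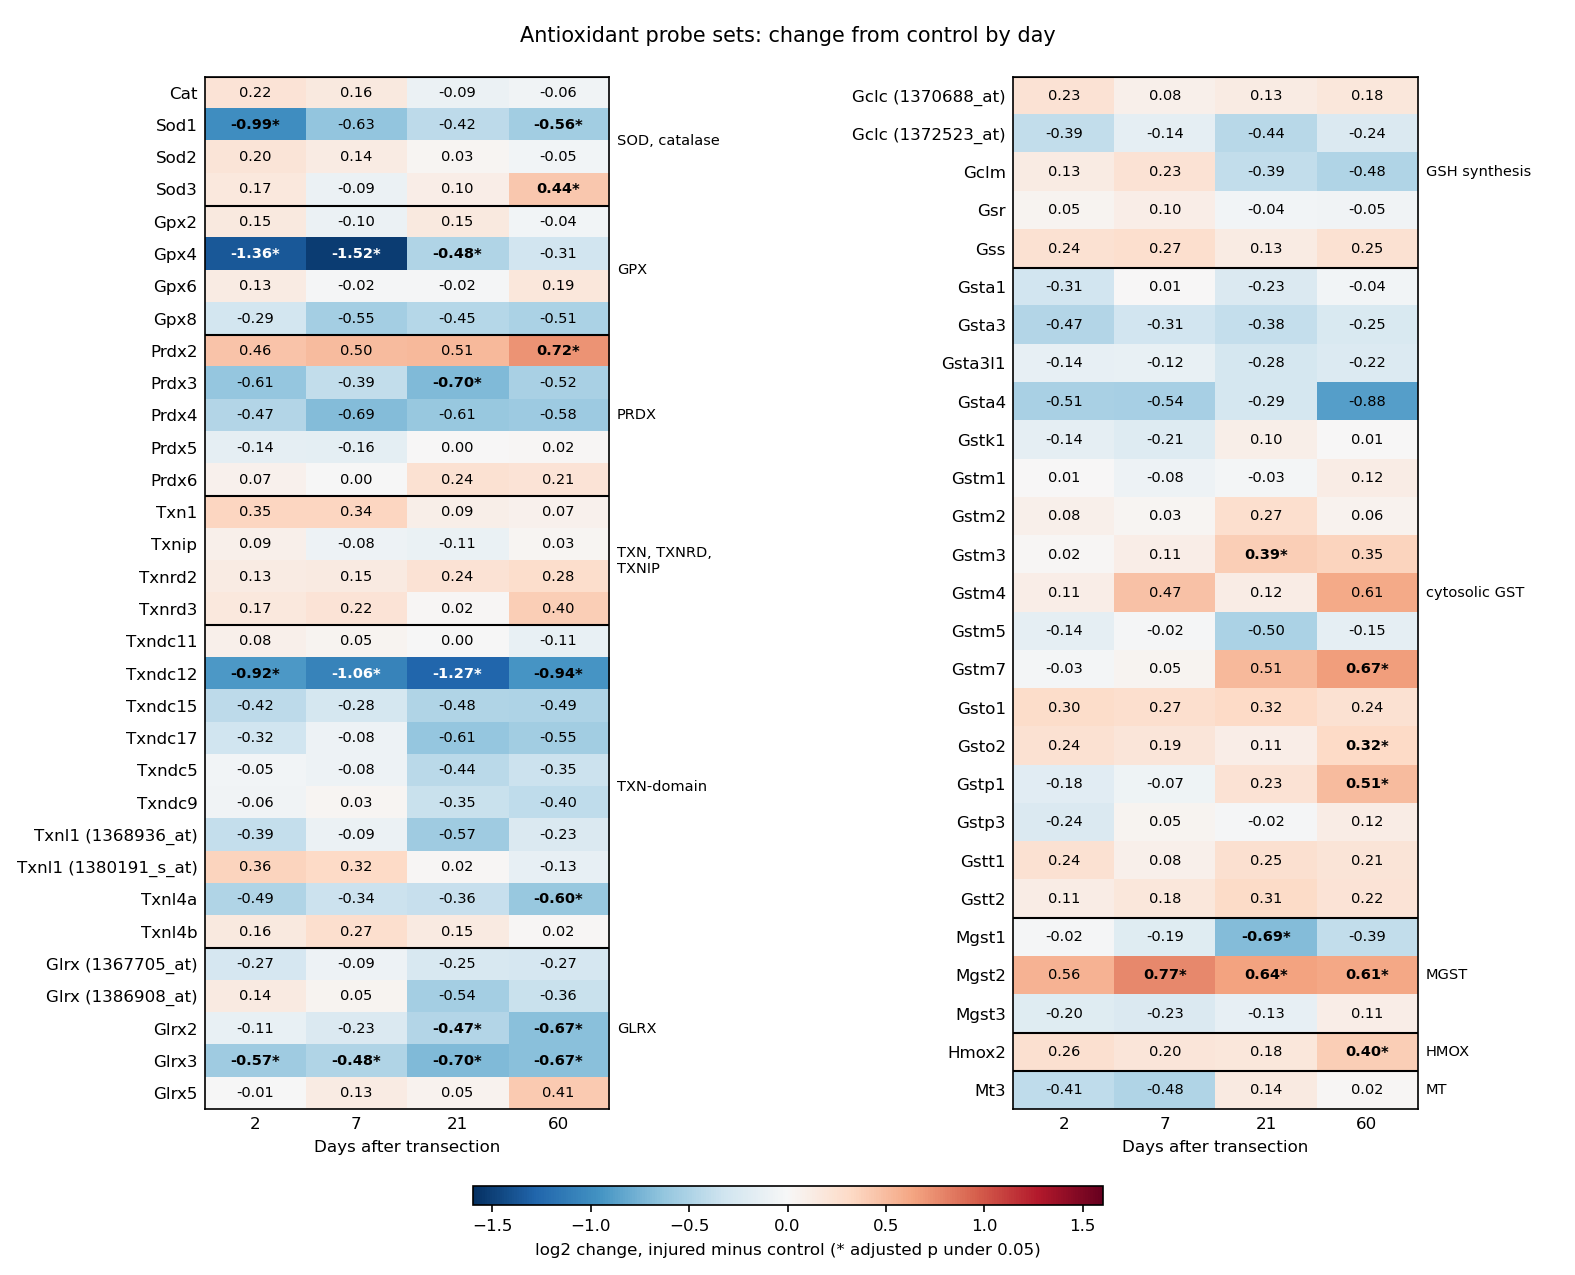
Change from control on the log2 scale (colour and number) of each antioxidant probe set (rows, grouped by role, with the probe set in brackets where a gene has 2) at days 2, 7, 21 and 60 after transection (columns), with an asterisk for an adjusted p under 0.05. The deepest blue cells are Gpx4 at days 2 and 7 (-1.36 and -1.52) and Txndc12 at day 21 (-1.27), and the transferases Gstm7, Gsto2, Gstp1 and Mgst2 carry an asterisk at day 60.

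The stretch before the start of transcription is shown for the members lower together at day 2 (Gpx4, Sod1, Glrx3 and Txndc12) and for the 3 cytosolic transferases higher at day 60 (Gstp1, Gstm7 and Gsto2), because 2 sequence motifs are known to control genes of these families. The antioxidant response element, bound by NRF2 with a small MAF protein, was searched as TGACNNNGC and the metal response element, bound by MTF1, as TGCACNC or TGCGCNC, on both strands of the 250 bases before each RefSeq start in build GRCr8. Bases are given 5′ to 3′ on the strand of the gene, and capitals mark matches to either motif.
Gpx4, chr7:10303630-10303879, minus strand: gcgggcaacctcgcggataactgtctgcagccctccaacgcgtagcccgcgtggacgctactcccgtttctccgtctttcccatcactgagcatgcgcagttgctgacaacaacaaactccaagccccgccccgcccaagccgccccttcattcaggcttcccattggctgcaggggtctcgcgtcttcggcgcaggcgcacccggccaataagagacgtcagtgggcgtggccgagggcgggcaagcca
Sod1, chr11:42942573-42942822, plus strand: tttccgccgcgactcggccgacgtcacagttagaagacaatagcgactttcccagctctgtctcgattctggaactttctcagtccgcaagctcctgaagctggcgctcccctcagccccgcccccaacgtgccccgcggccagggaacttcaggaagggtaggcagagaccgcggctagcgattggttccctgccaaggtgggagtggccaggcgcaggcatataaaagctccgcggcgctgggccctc
Glrx3, chr1:201671244-201671493, plus strand: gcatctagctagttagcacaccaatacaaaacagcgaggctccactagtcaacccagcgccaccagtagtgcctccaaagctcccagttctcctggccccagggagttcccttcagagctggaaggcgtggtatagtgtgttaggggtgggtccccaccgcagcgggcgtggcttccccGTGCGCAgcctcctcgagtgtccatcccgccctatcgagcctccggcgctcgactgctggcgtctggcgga
Txndc12, chr5:128816296-128816545, plus strand: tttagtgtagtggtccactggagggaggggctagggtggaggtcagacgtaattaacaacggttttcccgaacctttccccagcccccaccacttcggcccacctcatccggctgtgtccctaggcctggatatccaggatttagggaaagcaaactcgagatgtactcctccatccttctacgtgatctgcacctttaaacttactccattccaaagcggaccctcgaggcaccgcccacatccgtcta
Gstp1, chr1:210769706-210769955, minus strand: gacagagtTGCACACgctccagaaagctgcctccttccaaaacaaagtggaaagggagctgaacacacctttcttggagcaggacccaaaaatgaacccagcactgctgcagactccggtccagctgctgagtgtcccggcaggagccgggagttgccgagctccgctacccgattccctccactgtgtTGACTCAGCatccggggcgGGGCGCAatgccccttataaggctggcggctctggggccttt
Gstm7, chr2:198260320-198260569, minus strand: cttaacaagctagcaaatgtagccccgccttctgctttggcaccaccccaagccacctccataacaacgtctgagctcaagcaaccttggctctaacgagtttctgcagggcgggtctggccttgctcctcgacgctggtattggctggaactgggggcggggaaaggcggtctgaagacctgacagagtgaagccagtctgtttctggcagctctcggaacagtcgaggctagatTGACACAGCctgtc
Gsto2, chr1:256673126-256673375, plus strand: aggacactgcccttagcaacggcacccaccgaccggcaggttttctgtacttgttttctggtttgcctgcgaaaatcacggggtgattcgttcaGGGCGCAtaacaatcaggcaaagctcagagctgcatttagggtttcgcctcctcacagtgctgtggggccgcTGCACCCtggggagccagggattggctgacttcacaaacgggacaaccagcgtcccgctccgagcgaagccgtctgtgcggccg

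Of these 7 windows, those of Gstp1 and Gstm7 held the antioxidant response element letters, starting 61 and 14 bases before the start, and those of Gsto2 and the 4 members lower at day 2 did not. Gstp1, Gsto2 and Glrx3 held metal response element letters. Of the 5 matched genes called higher at day 60, 3 held the antioxidant letters (Gstm7, Gstp1 and Hmox2) and Gsto2 and Prdx2 did not. Of the matched genes called lower, 0 of 4, 0 of 3, 0 of 6 and 0 of 5 held them at days 2, 7, 21 and 60. The 1 matched gene called higher at day 21 did not hold them. How often all genes with such calls hold the letters was not counted, so these counts cannot be judged. The table of RefSeq promoters matched 48 of the 56 genes, and Gpx8, Gsr, Gstt1, Gstt2, Mgst2, Prdx6, Sod3 and Txnip were not matched. The antioxidant response element letters stood in 10 of the 48 (20.8%), namely Gclm, Gpx2, Gsta3, Gstm5, Gstm7, Gstp1, Hmox2, Sod2, Txndc11 and Txndc5, against 10.1% of all 33469 promoters of the same length, and the metal response element letters in 15 of the 48 (31.2%), against 20.6%. In 1 of the 10 the antioxidant letters overlapped the AP-1 site TGANTCA, as Gstp1 shows above. Of the 16 matched genes that passed a test, 4 held the antioxidant letters (Gclm, Gstm7, Gstp1 and Hmox2). These are matches of letters only.

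Among the superoxide dismutases, Sod1 was lower early and Sod3 higher at day 60, with no call for Sod2. Catalase, which acts on hydrogen peroxide, was not called either. Sod1 (1367641_at), the copper and zinc superoxide dismutase of the cytosol, whose mutations cause a familial form of amyotrophic lateral sclerosis, had values of 12.13, 11.83, 12.00 and 12.08 in Control and 10.66 to 11.52 (median 10.96) in Spi-2. It had 11.71, 11.61, 11.84, 11.00 and 10.75 in Spi-7, 11.18 to 11.92 (median 11.65) in Spi-21 and 10.91 to 12.03 (median 11.44) in Spi-60. All 6 Spi-2 animals lay under all controls, as did 4 of 5, 7 of 8 and 6 of 8 animals in the later groups. The change was -0.99 ± 0.20 (adjusted p = 0.00215) at day 2, -0.63 ± 0.21 (adjusted p = 0.113) at day 7, -0.42 ± 0.19 (adjusted p = 0.137) at day 21 and, on day 60, -0.56 ± 0.19 (adjusted p = 0.0435) (± SE here and below). The day 2 call was kept on leaving out each of 10 animals and under each of 7 other settings. The day 60 call was lost without any 1 of 10 of 12 animals (all 4 controls and Spi-60 animals 1, 2, 5, 6, 7 and 8), with adjusted p up to 0.111, and under 3 of the 7 settings, with adjusted p up to 0.185.

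Sod3 (1368322_at), the dismutase secreted into the space around cells, had 5.44, 5.58, 5.81 and 5.56 in Control, 5.65 to 5.92 (median 5.75) in Spi-2, 5.48, 5.25, 5.63, 5.79 and 5.36 in Spi-7, 5.09 to 6.21 (median 5.68) in Spi-21 and 5.74 to 6.37 (median 6.03) in Spi-60. It rose at day 60 by 0.44 ± 0.15 (adjusted p = 0.0369), where 7 of 8 animals lay above all controls. That call was lost without control animal 1, 2 or 4 or Spi-60 animal 1, 3, 4 or 5 (adjusted p up to 0.118), and the change was 0.21 (adjusted p = 0.588) with the Gapdh covariate. Sod2, the manganese enzyme of mitochondria, had changes between -0.05 and 0.20, and catalase (Cat), of peroxisomes, between -0.09 and 0.22.

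Gpx4 had the largest early changes of all members, and of the 4 glutathione peroxidases it alone was called. Gpx4 (1386871_at) is a selenoprotein that reduces lipid peroxides within membranes, and its loss can set off the form of cell death named ferroptosis. It had 8.51, 8.32, 7.97 and 8.21 in Control, 6.60 to 7.54 (median 6.79) in Spi-2 and 6.61, 6.49, 6.81, 6.65 and 7.12 in Spi-7. It had 7.39 to 8.08 (median 7.83) in Spi-21 and 7.33 to 8.27 (median 8.06) in Spi-60. All Spi-2 and Spi-7 animals lay under all controls with a gap, while 6 of 8 Spi-21 and 3 of 8 Spi-60 animals did. Gpx4 fell by 1.36 ± 0.18 (adjusted p = 2.16e-05) at day 2, and its change at day 7 was -1.52 ± 0.18 (adjusted p = 2.17e-05), and both calls were kept under every setting and on leaving out each animal. The change at day 21 was -0.48 ± 0.17 (adjusted p = 0.0497) and was lost without control animal 1, 2 or 4 or Spi-21 animal 1, 4, 5, 6, 7 or 8 (adjusted p up to 0.164) and under 3 of 8 settings (adjusted p up to 0.256), and that at day 60 was -0.31 ± 0.17 (adjusted p = 0.214). No other member had as small a p in the F-test (adjusted p = 2.16e-06).

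None of the other peroxidases of this family was called. Gpx2, a selenoprotein known from the gut, had changes between -0.10 and 0.15, and Gpx6, known from the olfactory epithelium, between -0.02 and 0.19. Gpx8, of the endoplasmic reticulum, had -0.29, -0.55, -0.45 and -0.51 at days 2, 7, 21 and 60, with a lowest adjusted p of 0.0819. Of the 4 selenoproteins among the members (Gpx2, Gpx4, Txnrd2 and Txnrd3), Gpx4 was called and the other 3 were not.

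**Figure D3:**
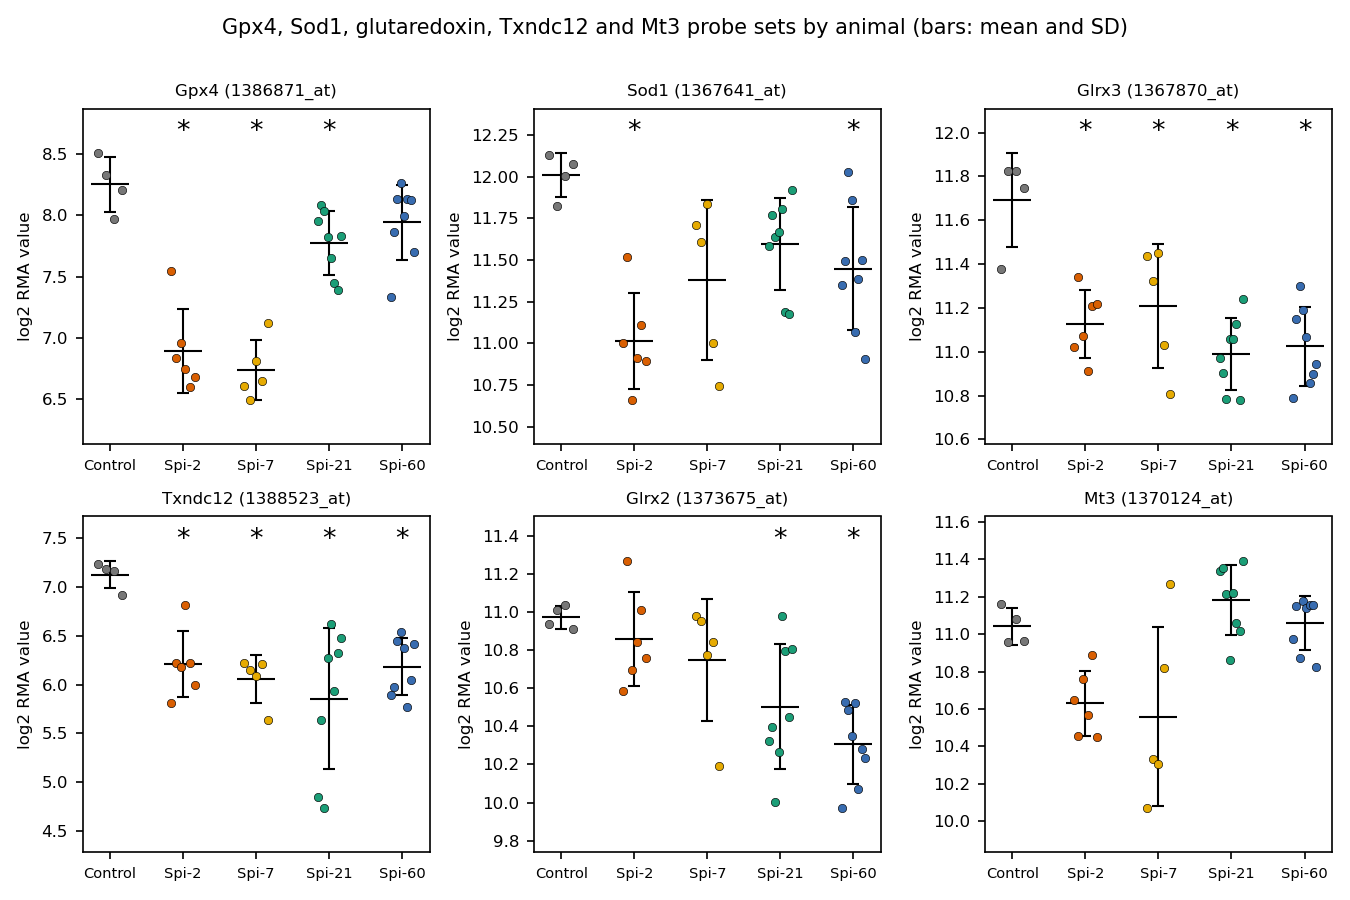
The log2 RMA value (vertical axis) of each animal (points) in each group (horizontal axis) for Gpx4, Sod1, Glrx3, Txndc12, Glrx2 and Mt3, with the group mean and SD in black and an asterisk over a day called against control. Gpx4 is between 6.49 and 7.54 at days 2 and 7, under the lowest control of 7.97, and the day 60 animals are between 7.33 and 8.27.

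The peroxiredoxins differed in direction by member. Prdx2 (1367578_at), an abundant peroxidase of the neuronal cytosol that takes its electrons from thioredoxin, had 11.09, 10.84, 10.83 and 11.20 in Control, 10.45 to 11.82 (median 11.67) in Spi-2, 11.59, 11.58, 11.50, 11.58 and 11.22 in Spi-7, 11.16 to 11.89 (median 11.42) in Spi-21 and 11.22 to 12.32 (median 11.63) in Spi-60. All 5 Spi-7 and all 8 Spi-60 animals lay above all controls, as did 5 of 6 in Spi-2 and 7 of 8 in Spi-21. It rose at day 60 by 0.72 ± 0.21 (adjusted p = 0.0156), a call lost without control animal 2 or 3 (adjusted p up to 0.0589) and with the Gapdh covariate (change 0.80, adjusted p = 0.112), and its changes of 0.46 ± 0.22 (adjusted p = 0.2), 0.50 ± 0.23 (adjusted p = 0.269) and 0.51 ± 0.21 (adjusted p = 0.0817) at days 2, 7 and 21 were not called.

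Prdx3 (1367591_at), the peroxiredoxin of mitochondria, had 8.45, 8.13, 8.43 and 8.22 in Control, 6.64 to 8.09 (median 7.87) in Spi-2, 8.30, 7.85, 7.93, 7.90 and 7.61 in Spi-7, 6.56 to 8.20 (median 7.71) in Spi-21 and 7.48 to 8.03 (median 7.83) in Spi-60. All Spi-2 and all Spi-60 animals lay under all controls, and 7 of 8 in Spi-21. It was lower at day 21, with a change of -0.70 ± 0.23 (adjusted p = 0.035), a call lost without any 1 of the 4 controls or of Spi-21 animals 1, 2 and 3 (adjusted p up to 0.0945) and under 4 of 8 settings, among them the fit without those 3 animals together (change -0.38, adjusted p = 0.271), and the changes at days 2, 7 and 60 were -0.61 ± 0.24 (adjusted p = 0.114), -0.39 ± 0.25 (adjusted p = 0.486) and -0.52 ± 0.23 (adjusted p = 0.117). Prdx4, of the endoplasmic reticulum, was not called on any day, with changes of -0.47, -0.69, -0.61 and -0.58 and a lowest adjusted p of 0.0685, although all animals at days 7, 21 and 60 lay under all controls. Prdx5 had changes between -0.16 and 0.02, and Prdx6, which reduces phospholipid peroxides, between 0.00 and 0.24.

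None of the 4 members that make up thioredoxin itself, its reductases and its inhibitor was called by limma in any of the 4 contrasts. Txn1, the thioredoxin of the cytosol, had changes of 0.35 ± 0.14 (adjusted p = 0.137) and 0.34 ± 0.15 (adjusted p = 0.252) at days 2 and 7 and of 0.09 and 0.07 at days 21 and 60. Txnrd2, the reductase of mitochondria, had changes between 0.13 and 0.28, and Txnrd3, a reductase known from the testis, between 0.02 and 0.40, with all 8 Spi-60 animals above all controls (adjusted p = 0.0791). Txnip, which binds reduced thioredoxin and blocks it, stayed between -0.11 and 0.09. Unadjusted p-values under 0.05 were found in 4 of the 16 contrasts of these members, a threshold at which all probe sets were not counted.

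Of the 10 probe sets of other proteins with a thioredoxin fold, Txndc12 was lower at every day and Txnl4a at day 60. Txndc12 (1388523_at), a thiol oxidoreductase of the endoplasmic reticulum, had 7.24, 7.18, 7.16 and 6.92 in Control, 5.81 to 6.81 (median 6.20) in Spi-2, 6.22, 6.14, 6.09, 6.21 and 5.63 in Spi-7, 4.74 to 6.62 (median 6.10) in Spi-21 and 5.77 to 6.53 (median 6.21) in Spi-60. Each of the 27 injured animals lay under all controls. It fell on all 4 days, with a change of -0.92 ± 0.27 (adjusted p = 0.0285) at day 2, -1.06 ± 0.28 (adjusted p = 0.0327) at day 7, -1.27 ± 0.26 (adjusted p = 0.0016) at day 21 and, on day 60, -0.94 ± 0.26 (adjusted p = 0.011). The day 2 call was lost without control animal 1, 2 or 3 or Spi-2 animal 1 or 6 (adjusted p up to 0.0776), and the day 7 call without control animal 1, 2 or 3 or Spi-7 animal 1, 2, 3 or 5 (adjusted p up to 0.101). With the Gapdh covariate the change at day 21 was -1.18 (adjusted p = 0.00188), and the calls at days 2, 7 and 60 were lost, with changes of -0.65, -0.73 and -0.45.

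Txnl4a (1371971_at), a part of the spliceosome with a thioredoxin fold, had 8.56, 8.28, 8.40 and 8.86 in Control, 7.76 to 8.32 (median 8.11) in Spi-2, 8.11, 8.06, 8.35, 8.09 and 8.27 in Spi-7, 7.59 to 8.80 (median 8.07) in Spi-21 and 7.59 to 8.39 (median 7.91) in Spi-60. It was lower at day 60, with a change of -0.60 ± 0.17 (adjusted p = 0.012) and 7 of 8 animals under all controls, a call lost without control animal 4 (adjusted p = 0.0649) and with the Gapdh covariate (change -0.26, adjusted p = 0.519). Txndc5, Txndc9, Txndc11, Txndc15, Txndc17, Txnl1 and Txnl4b were not called. At day 60, 9 of the 10 probe sets of this group had changes below 0, with a median of -0.37, against 49.5% of all probe sets below 0. Of the 10, 2 were called lower on that day. The 10 were measured in the same animals. The 2 probe sets of Txnl1 disagreed, with changes at day 2 of -0.39 for 1368936_at and 0.36 for 1380191_s_at, whose suffix marks probes shared by several transcripts.

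Glutaredoxins 2 and 3 were lower after the injury, while Glrx and Glrx5 were not called. Glrx3 (1367870_at), a glutaredoxin of the cytosol that carries iron-sulfur clusters, had 11.38, 11.82, 11.82 and 11.75 in Control, 10.91 to 11.34 (median 11.14) in Spi-2, 11.44, 11.32, 11.45, 11.03 and 10.81 in Spi-7, 10.78 to 11.24 (median 11.02) in Spi-21 and 10.79 to 11.30 (median 11.01) in Spi-60. All animals of Spi-2, Spi-21 and Spi-60 lay under all controls, and 3 of 5 in Spi-7. It fell on all 4 days, with a change of -0.57 ± 0.13 (adjusted p = 0.0052) at day 2, -0.48 ± 0.13 (adjusted p = 0.0449) at day 7, -0.70 ± 0.12 (adjusted p = 0.000507) at day 21 and, on day 60, -0.67 ± 0.12 (adjusted p = 0.000511). The calls at days 2, 21 and 60 were kept under every setting and on leaving out each animal, while that at day 7 was lost without control animal 2, 3 or 4 or Spi-7 animal 2, 4 or 5 (adjusted p up to 0.154) and under 4 of 7 settings (adjusted p up to 0.162).

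Glrx2 (1373675_at), a glutaredoxin of mitochondria, had 10.94, 11.01, 11.04 and 10.91 in Control, 10.58 to 11.27 (median 10.80) in Spi-2, 10.98, 10.95, 10.78, 10.84 and 10.19 in Spi-7, 10.00 to 10.98 (median 10.42) in Spi-21 and 9.97 to 10.53 (median 10.31) in Spi-60. The controls spanned a narrow range and all 8 Spi-60 animals lay under it, with 7 of 8 in Spi-21. The change was -0.11 ± 0.17 (adjusted p = 0.751) at day 2, -0.23 ± 0.17 (adjusted p = 0.57) at day 7, -0.47 ± 0.16 (adjusted p = 0.0372) at day 21 and, on day 60, -0.67 ± 0.16 (adjusted p = 0.00401). The day 21 call was lost without any 1 of the 4 controls or of Spi-21 animals 1, 2, 3 and 4 (adjusted p up to 0.0942) and under 5 of 8 settings (adjusted p up to 0.25), and that at day 60 was kept without each animal but not with the Gapdh covariate (change -0.53, adjusted p = 0.155). The brighter probe set of Glrx (1386908_at) had 0.14, 0.05, -0.54 and -0.36 at the 4 days and the dimmer (1367705_at) -0.27, -0.09, -0.25 and -0.27, which differ in sign at days 2 and 7. Glrx5, which acts in building iron-sulfur clusters in mitochondria, differed from control by 0.41 ± 0.16 (adjusted p = 0.075) on day 60.

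Genes for making glutathione showed no call against control, and the modifier subunit Gclm passed the F-test alone. Gclm (1370030_at), which raises the activity of the rate-limiting ligase, had 7.96, 8.83, 8.45 and 8.92 in Control, 8.31 to 9.05 (median 8.65) in Spi-2, 9.05, 9.01, 8.82, 8.55 and 8.44 in Spi-7, 7.43 to 8.57 (median 8.30) in Spi-21 and 7.66 to 8.45 (median 8.00) in Spi-60. The groups overlapped with control throughout, with changes of 0.13 and 0.23 at days 2 and 7 and -0.39 and -0.48 at days 21 and 60 (F-test, adjusted p = 0.00853; lowest adjusted p of a contrast 0.095). The 2 probe sets of Gclc, the catalytic subunit of the same ligase, had changes of opposite sign on all 4 days, between 0.08 and 0.23 for 1370688_at and between -0.44 and -0.14 for 1372523_at. Gss, which adds the last residue of glutathione, had changes between 0.13 and 0.27, and Gsr, which reduces oxidised glutathione, between -0.05 and 0.10.

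Of the 17 cytosolic and mitochondrial glutathione S-transferases, 0 were called at days 2 and 7, 1 was higher at day 21 and 3 were higher at day 60. Of all probe sets 5.94% and 7.2% were higher on those 2 days. None of the 17 was called lower, where 4.98%, 1.67%, 10.7% and 9.89% of all probe sets were lower at days 2, 7, 21 and 60. At an unadjusted p under 0.05, 3 of their 68 contrasts were lower and 14 higher. These contrasts share the same control animals, and the share of all probe sets at that threshold was not counted. Gstp1 (1388122_at), the pi-class transferase, which joins glutathione to electrophiles, had 8.75, 8.92, 8.73 and 8.74 in Control, 7.97 to 8.90 (median 8.71) in Spi-2, 8.51, 8.76, 8.73, 8.89 and 8.69 in Spi-7, 8.75 to 9.23 (median 9.04) in Spi-21 and 8.97 to 9.55 (median 9.25) in Spi-60. All 8 Spi-60 animals lay above all controls, and 6 of 8 in Spi-21. It rose at day 60 by 0.51 ± 0.13 (adjusted p = 0.00834), a call kept on leaving out each animal, against changes of -0.18, -0.07 and 0.23 at days 2, 7 and 21. With the Gapdh covariate it was 0.60 (adjusted p = 0.0606).

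Gstm7 (1387023_at), of the mu class, had 6.95, 6.44, 6.65 and 6.60 in Control, 6.18 to 6.84 (median 6.77) in Spi-2, 6.69, 6.40, 6.74, 6.92 and 6.79 in Spi-7, 6.70 to 7.59 (median 7.21) in Spi-21 and 6.64 to 7.92 (median 7.42) in Spi-60. In both late groups 6 of 8 animals lay above all controls, and it rose by 0.67 ± 0.18 (adjusted p = 0.0125) at day 60, with 0.51 ± 0.18 (adjusted p = 0.0535) at day 21. The day 60 call was lost without control animal 2 (adjusted p = 0.0585) and with the Gapdh covariate (change 0.46, adjusted p = 0.31). Gstm3 (1369921_at), of the same class, had 5.74, 5.60, 5.56 and 6.01 in Control, 5.42 to 5.99 (median 5.77) in Spi-2, 6.06, 5.70, 5.73, 5.65 and 6.04 in Spi-7, 5.78 to 6.37 (median 6.11) in Spi-21 and 5.88 to 6.49 (median 5.99) in Spi-60. It was higher at day 21 by 0.39 ± 0.13 (adjusted p = 0.0297), with 7 of 8 animals above all controls, and at day 60 the change was 0.35 ± 0.13 (adjusted p = 0.0507). The day 21 call was lost without control animal 1, 2 or 3 (adjusted p up to 0.112) and under 3 of 8 settings (adjusted p up to 0.107). The mu-class genes are close paralogs, and cross-hybridisation between their probe sets was not tested.

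Gsto2 (1384493_at), of the omega class, which also reduces dehydroascorbate, was higher by 0.32 ± 0.09 (adjusted p = 0.0115) at day 60, kept on leaving out each animal but not with the Gapdh covariate (change 0.32, adjusted p = 0.131), and all animals of Spi-2, Spi-7 and Spi-60 lay above all controls. The 13 transferases with no call were Gsta1, Gsta3, Gsta3l1, Gsta4, Gstk1, Gstm1, Gstm2, Gstm4, Gstm5, Gsto1, Gstp3, Gstt1 and Gstt2. Gsta4, which clears the lipid peroxidation product hydroxynonenal, had the lowest value of them, -0.88 ± 0.40 (adjusted p = 0.132) at day 60, and Gstm4 the highest, 0.61 ± 0.24 (adjusted p = 0.0698) on the same day. The 4 alpha-class members had changes below 0 on every day apart from Gsta1 at day 7 (0.01), none of them called.

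**Figure D4:**
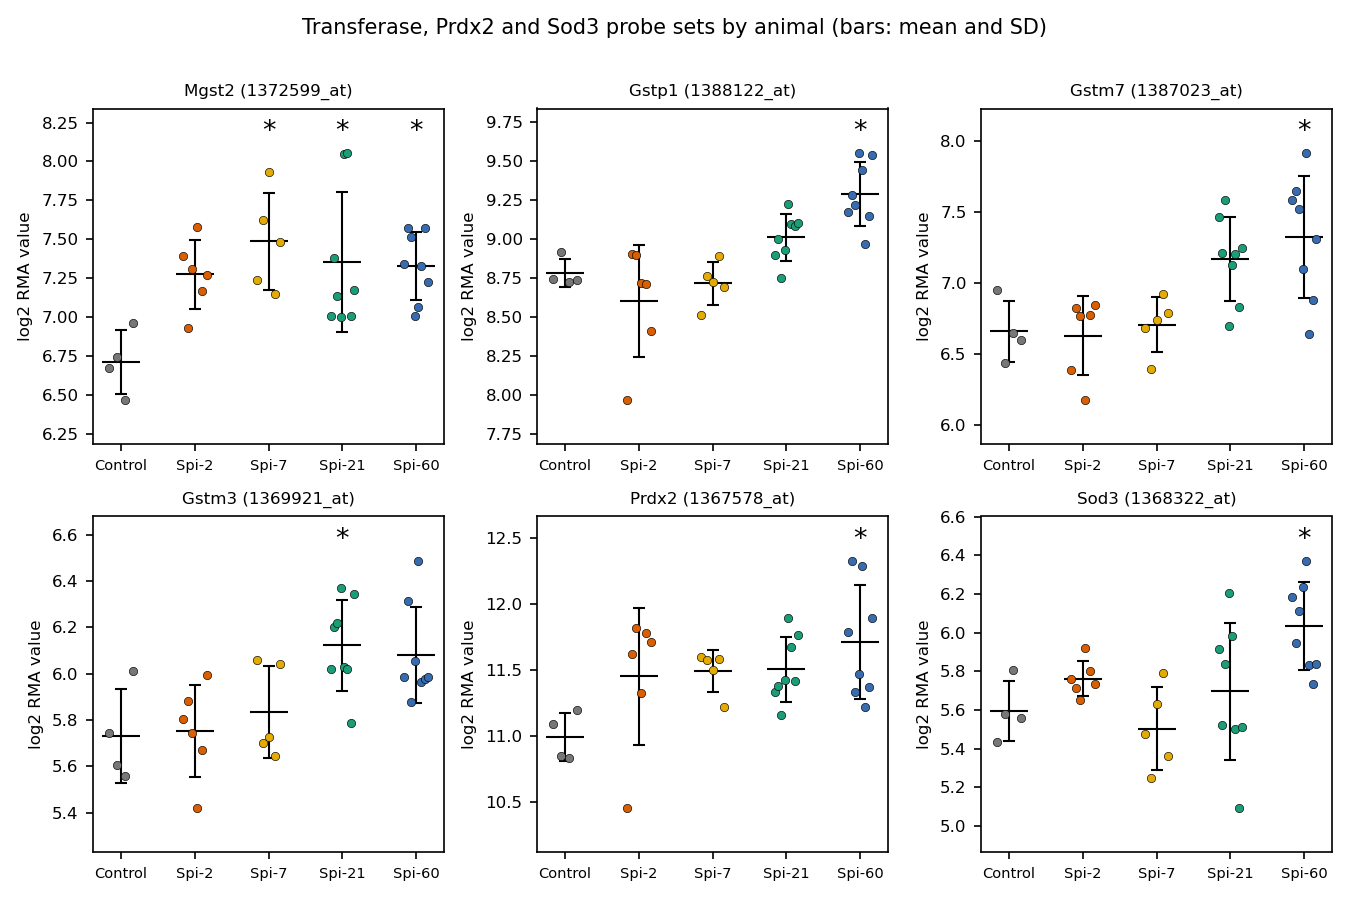
The log2 RMA value (vertical axis) of each animal (points) in each group (horizontal axis) for Mgst2, Gstp1, Gstm7, Gstm3, Prdx2 and Sod3, with the group mean and SD in black and an asterisk over a day called against control. Mgst2 is above the highest control of 6.97 in all animals of Spi-7, Spi-21 and Spi-60, and Gstp1 is above its highest control of 8.92 in all animals of Spi-60.

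The microsomal transferases went different ways. Mgst2 (1372599_at), which makes leukotriene C4 and conjugates glutathione, had 6.68, 6.75, 6.47 and 6.97 in Control, 6.93 to 7.58 (median 7.29) in Spi-2, 7.24, 7.63, 7.93, 7.15 and 7.49 in Spi-7, 7.01 to 8.05 (median 7.16) in Spi-21 and 7.01 to 7.57 (median 7.33) in Spi-60. All animals of Spi-7, Spi-21 and Spi-60 and 5 of 6 in Spi-2 lay above all controls. It rose by 0.77 ± 0.20 (adjusted p = 0.03) at day 7, 0.64 ± 0.18 (adjusted p = 0.0168) at day 21 and, on day 60, 0.61 ± 0.18 (adjusted p = 0.0192), with 0.56 ± 0.19 (adjusted p = 0.0637) at day 2. The day 7 call was lost without control animal 1, 2 or 3 or Spi-7 animal 2 or 3 (adjusted p up to 0.129), and those at days 21 and 60 without control animal 3 (adjusted p = 0.0732 and 0.0852). With the Gapdh covariate its changes were 0.96, 0.69 and 0.89 at days 7, 21 and 60, and all were called. Of the other settings, fitting only the 2 groups ended the day 21 call (adjusted p = 0.0666) and 1 setting ended those of days 7 and 60 (adjusted p = 0.0748 and 0.0531). The microglia and macrophage markers were also higher on these days (mean 5.64 in Control, 6.36 in Spi-7, 6.10 in Spi-21 and 6.24 in Spi-60), and their part in the values of Mgst2 was not tested.

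Mgst1 (1367612_at), found in the endoplasmic reticulum and the outer mitochondrial membrane, had 8.02, 8.93, 7.84 and 8.47 in Control, 7.84 to 8.76 (median 8.28) in Spi-2, 8.25, 8.16, 8.62, 8.05 and 7.56 in Spi-7, 6.80 to 8.11 (median 7.63) in Spi-21 and 7.28 to 8.72 (median 7.87) in Spi-60. It was lower at day 21, with a change of -0.69 ± 0.24 (adjusted p = 0.0419) and 5 of 8 animals under all controls. The call was lost without control animal 2 or 4 or Spi-21 animal 1, 3, 6 or 8 (adjusted p up to 0.217) and under 4 of 8 settings, with adjusted p of 0.0548 under the Gapdh covariate and 0.167 without Spi-21 animals 1 to 3 together. Mgst3 had changes between -0.23 and 0.11 and was not called.

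A heme oxygenase and a metallothionein completed the list. Hmox2 (1367903_at), the constitutive heme oxygenase of neurons, had 6.77, 6.96, 6.55 and 7.20 in Control, 6.69 to 7.39 (median 7.19) in Spi-2, 7.24, 7.03, 7.14, 7.11 and 6.80 in Spi-7, 6.77 to 7.22 (median 7.07) in Spi-21 and 6.81 to 7.67 (median 7.27) in Spi-60. It was higher at day 60 by 0.40 ± 0.14 (adjusted p = 0.0465), with 6 of 8 animals above all controls, and the call was lost without control animal 1, 2 or 3 or Spi-60 animal 1, 2, 3, 4, 5 or 8 (adjusted p up to 0.213) and with the Gapdh covariate (change 0.17, adjusted p = 0.66) or only the 2 groups in the fit (adjusted p = 0.0738). Mt3 (1370124_at), the metallothionein of brain, which binds zinc and copper, had 11.16, 10.96, 11.08 and 10.96 in Control, 10.45 to 10.89 (median 10.61) in Spi-2, 10.07, 10.33, 10.31, 10.82 and 11.27 in Spi-7, 10.86 to 11.39 (median 11.22) in Spi-21 and 10.82 to 11.18 (median 11.15) in Spi-60. All 6 Spi-2 animals and 4 of 5 in Spi-7 lay under all controls, and the late groups overlapped with them. Mt3 passed the F-test (adjusted p = 0.0021), while its changes of -0.41 ± 0.15 (adjusted p = 0.0889) and -0.48 ± 0.16 (adjusted p = 0.102) at days 2 and 7 were not called and those at days 21 and 60 were 0.14 and 0.02.

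Beyond the members, 46 probe sets of 42 genes that supply, sense or use the same systems were counted from a list of 59 genes. The F-test called 8 of them, and lower and higher calls were 1 and 2 at day 2, 0 and 0 at day 7, 3 and 2 at day 21 and 4 and 6 at day 60, against the shares of all probe sets given above. 9 of the 46 had an unadjusted p under 0.05 at day 7, a threshold at which all probe sets were not counted. Nfe2l2, which encodes NRF2, passed the F-test (adjusted p = 0.0192) with changes of 0.21, 0.15, -0.73 and -0.44 at days 2, 7, 21 and 60 and no called contrast, while the 2 probe sets of its relative Nfe2l1 disagreed: 1 rose by 0.52 at day 21 (adjusted p = 0.0017) and by 0.44 at day 60 (adjusted p = 0.0051), and the other had changes of -0.09 and 0.12 on those days (adjusted p = 0.631 and 0.546). Slc3a2, the heavy chain of the cystine transporter, rose by 0.49 at day 2 (adjusted p = 0.0133), as did Blvrb, a biliverdin reductase, by 0.62 (adjusted p = 0.0232), and Glo1, which clears methylglyoxal with glutathione, was lower (-0.55, adjusted p = 0.0347).

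Of the genes that make NADPH, Nnt, the transhydrogenase of mitochondria, had changes of -1.27 at day 21 and -1.17 at day 60 (adjusted p = 0.0175 and 0.0243). Idh1, Idh2 and Me1, which also make NADPH, were not called on any day. Tkt and Pgls belong to the pentose phosphate pathway but do not themselves make NADPH. At day 60 Tkt was lower (-0.42, adjusted p = 0.0183) and Pgls higher by 0.54 (adjusted p = 0.0205). Ggct and Chac1, which break down glutathione or its products, had opposite calls at day 60, with changes of -0.74 (adjusted p = 0.0035) and 0.57 (adjusted p = 0.0194). Sephs2, which makes the selenium donor for selenoproteins, was lower at day 21 (-0.70, adjusted p = 0.0396). At day 60 the selenoprotein Selenom was higher by 0.72 (adjusted p = 0.0356) and Selenok lower (-0.40, adjusted p = 0.043). Ggt7 and Ltc4s were higher on that day, by 0.54 (adjusted p = 0.031) and 0.36 (adjusted p = 0.043). Abcc1 was higher at day 21 by 0.53 (adjusted p = 0.0058). On day 21 Sesn1 had changes of -0.79 (adjusted p = 0.0182) and 0.16 (adjusted p = 0.248) in its different probe sets. Cbr1 passed the F-test alone (adjusted p = 0.00305). Mt2A, a metallothionein whose symbol the choice of members did not take in, had changes of 0.52, -0.02, 0.27 and 0.42 at days 2, 7, 21 and 60 and was not called (lowest adjusted p 0.183).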

How the data were processed

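Expression in laser-cut tail motor neurons of 31 rats was measured on 1-colour arrays. The authors dropped probe sets outside an Ensembl annotation, compensated the background, normalised probe intensities by quantiles, summarised them by RMA (named in the submitters' processing notes, with no version) and compensated and normalised the summaries again. Their deposited log2 values cover 12919 probe sets, of which 6 Affymetrix control sets were left out. Gene symbols came from the platform annotation (11880 probe sets with 1 symbol, 320 with several, 713 with none). The number of arrays limits the precision.

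Groups followed the labels. Tests used limma 3.58.1 in R 4.3.3: the moderated F-test over the 5 groups (FDR 0.02, after the study's methods) and two-sided contrasts (adjusted p under 0.05), both adjusted by Benjamini-Hochberg over 12913 probe sets, with no covariate or block. The script was tested on simulated data with known changes. Alternatives were a further quantile normalisation, leaving out the dimmest 25% of probe sets, array weights, robust variance, the replicate number as a block, the Gapdh difference as a covariate, only the groups compared, and leaving out each animal. Leaving out Spi-21 animals 1 to 3 together was added after the data were seen. The members and lists were chosen with earlier results of these data known. Every member gene is named. Values by animal are given for members that passed the F-test or a day contrast, at most the 3 of smallest F-test p in each role group, with all probe sets of such a gene. Promoters were taken from a RefSeq table of build GRCr8, whose coordinates are not those of the array annotation. Figures were drawn with matplotlib 3.10.9.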

Additional observations from a re-analysis of the deposited data

Results flagged for a closer look

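Within each group of 4 to 8 animals, the highest and lowest values of the 17 members with values by animal were compared with their neighbours by Dixon's ratio. Of 85 such groups 7 held an animal that stood apart, where chance gives about 1 in 20.

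Spi-7 animal 5 stood apart in 3 members: it had 10.19 for Glrx2, with the next animal at 10.78, 5.63 for Txndc12, with the next at 6.09, and 11.22 for Prdx2, with the next at 11.50, and it was the lowest of its group in each. Spi-2 animal 1 was lowest in both peroxiredoxins given, with 10.45 for Prdx2 (next animal 11.32) and 6.64 for Prdx3 (next animal 7.66). Control animal 2 was highest for Gstp1 at 8.92, with the next control at 8.75. Spi-21 animal 3 was lowest for Mgst1 at 6.80, with the next at 7.51. No cause of these values was tested.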

How the results depend on the processing

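None of the 28 member changes called against control turned its direction under an alternative, and 129 of 520 repeats of them were no longer called. Array weights gave 22 called members in the F-test over the 5 groups (10 without weights), 12 at day 2 (4), 11 at day 7 (4), 15 at day 21 (8), 24 at day 60 (12) and 7 in the F-test over days 0, 2 and 7 (3). With the same weights the shares of all probe sets called also rose, to 31.6%, 17.6%, 11.8%, 20.2%, 25% and 8.21% in these 6 tests, against 16.2%, 8.87%, 2.59%, 16.6%, 17.1% and 3.01% without weights, and the members' shares were 37.3%, 20.3%, 18.6%, 25.4%, 40.7% and 11.9% with weights. With the Gapdh difference as a covariate 2 members were called at day 7, 5 at day 21 and 2 (Glrx3 and Mgst2) at day 60. The shares of all probe sets called on these days were 1.47%, 15.2% and 2.07% with it. Fits on the 2 groups compared called 3 at day 21 and 19 at day 60 (5.08% and 32.2%), against 10.6% and 23% of all probe sets. Without Spi-21 animals 1 to 3 the F-test called 10 and day 21 called 4 (all probe sets, 14.9% and 5.27%). Leaving out each animal in turn gave 7 to 12 members in the F-test over the 5 groups, 3 to 5 at day 2, 1 to 3 at day 7, 3 to 9 at day 21, 7 to 13 at day 60, 2 to 4 in the F-test over days 0, 2 and 7, and 0 both between days 60 and 21 and between days 7 and 2. Animals that share a replicate number in different groups did not deviate together in the median (r = -0.04 over 51 pairs, against 0.01 over 327 others). Single pairs of the same number lay between -0.33 and 0.35, so a median cannot settle whether the numbers pair animals. With the number as a block, 12 members passed the F-test over the 5 groups, 4 at day 2, 2 at day 7, 7 at day 21, 13 at day 60, and 1 passed the F-test over days 0, 2 and 7. The shares of all probe sets called with the block in these 6 tests were 15.4%, 7.15%, 1.85%, 16.3%, 17.3% and 0.194%. The block ended the calls of Glrx3 and Mgst2 at day 7, Glrx2, Gpx4 and Gstm3 at day 21, and Sod1 and Mgst2 at day 60. Causes of these shifts were not tested. The mean Gapdh difference was itself higher in each injured group than in Control. Precision is limited by 4 controls.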
